A study of Mus musculus with 21 samples.

Results

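RNA of cranial neural crest cells from the mouse pinna at E12.5 (E, embryonic day) was compared with RNA of the same lineage 2 days earlier and 2 days later, to describe genes whose level at E12.5 lay outside the range of both other stages. A gene was called a peak when it passed 3 tests: higher at E12.5 than the average of the other stages (the E12.5 contrast), higher than at E10.5 and higher than at E14.5. A dip was the mirror image. Each test was edgeR's quasi-likelihood test, adjusted by Benjamini-Hochberg over all genes tested and called at an adjusted p under 0.05. Of 13438 genes tested, 789 were peaks (5.87%) and 667 were dips (4.96%), and the comparison used 9 of the 21 libraries of the series.

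The 9 libraries fell into 3 groups of 3: PA2 (second pharyngeal arch) at E10.5, the pinna at E12.5 and the pinna at E14.5. All came from Wnt1::Cre;ROSA-RFP embryos on a mixed C57Bl/6J and CD1 background, labelled WT, and RFP-positive cells were sorted by flow cytometry. The Wnt1 promoter drives Cre in neural crest progenitors before they migrate, so the reporter marks their descendants and not a single cell type. Tissue was dissociated with trypsin at E10.5 and E12.5 and with papain at E14.5. Stage therefore cannot be told apart from dissected tissue between E10.5 and the later stages, nor from the enzyme at E14.5. In sorted bulk RNA, fewer cells of a type and less RNA per cell cannot be told apart either. A separate readout, the genotype series, used 6 further libraries of PA2 at E10.5. They came from WT embryos and from embryos lacking both copies of HIRE1, a distal regulatory region of Hoxa2 (HIRE1del). The paper describes dissection of the arch for them and gives no sorting step.

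The second arch is a swelling of the embryonic pharynx filled by neural crest cells that switch on Hoxa2, and its outer side grows out as the pinna, the external ear. In arch mesenchyme, Hedgehog, FGF, Wnt and BMP ligands from the covering epithelium and from the mesenchyme itself switch on target genes, some of which (Gli1 and Ptch1 for Hedgehog, Etv4, Etv5, Spry1 and Dusp6 for FGF, Axin2 and Lef1 for Wnt) serve as readouts of the signal. Transcription factors such as the Dlx, Alx, Pax and Osr families divide the mesenchyme into regions that become cartilage, bone, tendon and dermis.

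Libraries held 29.2 to 30.2 M counts (M, 1000000) at E10.5, 25.8 to 29.5 M at E12.5 and 47.5 to 49.1 M at E14.5. A floor of 3 counts corresponded to between 0.0631 and 0.111 CPM (counts per 1000000 counts, scaled by TMM) in a single library, which covers counting error only. Of 8 markers of neural crest mesenchyme, all were above 1 CPM at every stage, and their summed level was 1780 to 2080 CPM at E10.5, 3760 to 4040 CPM at E12.5 and 3880 to 4200 CPM at E14.5. By gene, 6 of these 8 markers were peaks (Dlx5, Dlx6, Msx1, Prrx1, Twist1 and Twist2), although the sum of the 8 was not above that of E14.5. Dlx5 lost its call with no filter on low counts (log2 fold change against the nearer stage 0.20). It also lost it without E10.5 replicate 1 (0.12) or E12.5 replicate 2 or 3 (0.21 and 0.20). The E10.5 libraries differed in how far they lay towards the E12.5 libraries. Replicate 3 lay nearest: it was the highest of the 3 E10.5 libraries for 443 of the 789 peaks (56.1%, against 35.0% of all genes) and the lowest for 339 of the 667 dips (50.8%, against 36.0%). Replicate 1 went the other way, highest for 131 peaks (16.6%, against 35.9%) and lowest for 162 dips (24.3%, against 40.2%). Without replicate 3, 764 peaks and 625 dips were called, and without replicate 1, 728 and 614.

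By the E12.5 contrast alone, 3076 genes were higher at E12.5 (22.9% of those tested) and 2760 were lower (20.5%). With both pairwise tests also required, peaks and dips together made up 1456 genes (10.8%). The distance from the nearer stage was modest for most members. Its median was 0.55 on the log2 scale for peaks (1.47-fold), with quartiles at 0.33 and 0.98, and 0.44 for dips (1.35-fold), with quartiles at 0.27 and 0.86. A distance of at least 1 was reached by 192 peaks and 134 dips, and of at least 2 by 52 and 37. The 3 E12.5 libraries were outside the range of the other 6 in 753 of 789 peaks and 629 of 667 dips. At the edge of the call, the peak Smyd3 had a largest adjusted p of 0.04998 and Scyl2, just outside, 0.05028, with log2 distances of 0.21 and 0.18. The dip Snx7 had 0.04988 and Lmo4, just outside, 0.05001, with distances of -0.31 and -0.24. The balance of peaks and dips depended on scaling: peaks were 54.2% of the transient genes with TMM and 72.6% with total counts only (1167 peaks and 440 dips), a scaling under which the median of all genes was 0.0959 in the E12.5 contrast and 0.131 against E14.5 (0.00634 and 0.0076 with TMM).

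**Figure D1:**
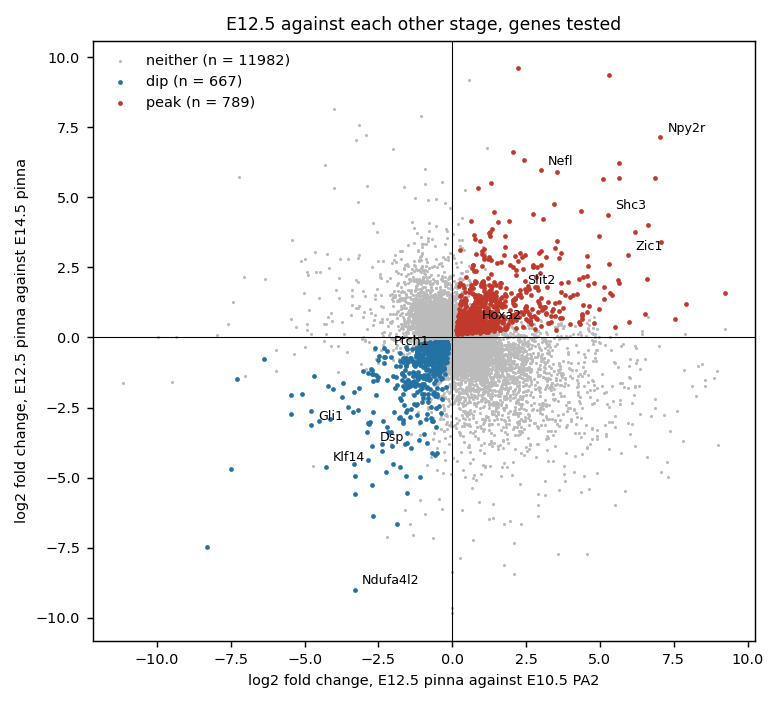
Each point is a gene tested, placed by its log2 fold change at E12.5 against E10.5 PA2 (horizontal) and against the E14.5 pinna (vertical). The 789 peaks (red) fill the upper right and the 667 dips (blue) the lower left, most of them close to the centre.

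Members did not all return to their starting level. E14.5 was called higher than E10.5 for 301 peaks (38.1%), lower for 173 (21.9%) and neither for 315 (39.9%), and for dips the numbers were 199 (29.8%), 179 (26.8%) and 289 (43.3%). Over all genes tested E14.5 was higher for 42.0% and lower for 40.0%, and these shares use the same libraries as the choice of members, so nothing is read from the difference.

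The largest peaks included genes known best from neurons. Npy2r, a receptor for neuropeptide Y (chr3:82538383-82548084, minus strand, GRCm38), had the greatest distance of the genes named by the rule. The libraries gave 0.0335, 0.0686 and 0.131 CPM for Npy2r at E10.5, then 11.03, 9.73 and 11.6 CPM at E12.5 and 0.1101, 0.0631 and 0.0438 CPM at E14.5. Its level was near the floor in all 6 libraries of the other stages and high in the 3 E12.5 libraries, with a log2 fold change of 7.05 against E10.5 (SE 0.32, edgeR, adjusted p = 1.33e-08) and a log2 fold change of 7.15 against E14.5 (SE 0.30, edgeR, adjusted p = 1.02e-08). Shc3, an adaptor of receptor tyrosine kinases found in neurons (chr13:51431041-51569419), had the same shape. The libraries gave 0.268, 0.309 and 0.229 CPM for Shc3 at E10.5, then 9.77, 11.46 and 10.47 CPM at E12.5 and 0.441, 0.631 and 0.438 CPM at E14.5. The groups did not overlap, and a log2 fold change of 4.38 against E14.5 (SE 0.20, edgeR, adjusted p = 1.68e-08) stood against the nearer stage. Npy2r and Shc3 passed the filter on low genes (1 CPM or more in 2 or more libraries) only through the E12.5 libraries. The same holds for Wnt2, Pax1 and Zic1 below. Entry to the test thus depended on the same E12.5 levels, and the adjusted p of such genes is given as description only. Nefl encodes the light neurofilament chain, the axonal filament protein. Levels of Nefl were 94.4, 139.9 and 108 CPM at E12.5, against 7.99, 12.52 and 22.4 CPM at E10.5 and 1.26, 1.72 and 2.45 CPM at E14.5. It was present at E10.5, rose at E12.5 and was lowest at E14.5, with a log2 fold change of 2.99 against E10.5 (SE 0.31, edgeR, adjusted p = 5.68e-06) and a log2 fold change of 5.98 against E14.5 (SE 0.37, edgeR, adjusted p = 1.53e-07). Its exons share 1108 bases with Nefm on the opposite strand, and the kit was unstranded, so reads of the pair cannot be told apart there. Lrrc7, a scaffold of postsynaptic sites, had a distance of 2.85. The summed level of 8 neuron markers was not higher at E12.5 (30.5 to 36.2 CPM) than at E10.5 (37.8 to 44.0 CPM), and 5 of the 8 were under 1 CPM at each of the 3 stages. Of the 4 neuron markers that were tested, 2 were higher and 2 lower by the E12.5 contrast, and none was a peak. Stmn2, a tubulin-binding protein of growing axons chosen after its values were seen, was higher at E12.5 than at E10.5 by a log2 fold change of 4.81 (SE 0.54, edgeR, adjusted p = 1.26e-05), with 0.72 (SE 0.39, adjusted p = 0.122) against E14.5. Tubb3, the neuronal beta-tubulin, chosen in the same way, was lower than at E10.5 (-0.57, SE 0.10) and higher than at E14.5 (3.26, SE 0.12). Tubb3 made up most of the summed level at E10.5 (means of 31.35 of 41.2 CPM) and at E12.5 (21.1 of 33.1 CPM). The comparison of the sums therefore rests largely on this gene. Isl1, also a neuron marker chosen in the same way, was lower than at E10.5 by -4.92 (SE 0.44), from a mean of 4.64 to 0.15 CPM. Elavl4, an RNA-binding protein of neurons, was a dip. Elavl4 measured 4.88, 3.57 and 3.37 CPM at E10.5, 1.45, 2.64 and 2.28 CPM at E12.5 and 5.02, 6.35 and 6.197 CPM at E14.5.

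The other large peaks were enzymes, channels and signals. Trpv6, a calcium-selective channel of epithelia (chr6:41620624-41636405), had a log2 fold change of 3.20 against E14.5 (SE 0.24, edgeR, adjusted p = 6.38e-07). Levels of Trpv6 were 19.5, 22.1 and 20.7 CPM at E12.5, against 0.937, 2.09 and 2.48 CPM at E10.5 and 2.33, 2.502 and 1.91 CPM at E14.5. Levels at E10.5 and E14.5 overlapped each other and both lay far under those of E12.5. Wnt2, a Wnt ligand (chr6:17988940-18030585), was as high against E10.5 as against E14.5. Wnt2 measured 0.301, 0.686 and 1.18 CPM at E10.5, 5.98, 6.07 and 5.302 CPM at E12.5 and 0.507, 0.8199 and 0.723 CPM at E14.5. The fold changes were 2.99 against E10.5 (SE 0.37) and 3.07 against E14.5 (SE 0.35), and the E10.5 libraries spread more widely than the others. Phex, an endopeptidase-like protein of bone and tooth cells that acts in phosphate balance, had a distance of 2.95, St14, the membrane protease matriptase, 3.60, Csmd3, a large membrane protein with CUB and sushi domains, 3.75, and Hs3st1, which sulfates heparan sulfate, 2.88. In the 11 peaks described by size, including the transcription factor Zic1, the E12.5 libraries lay above the other 6, which was a condition of the rule.

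**Figure D2:**
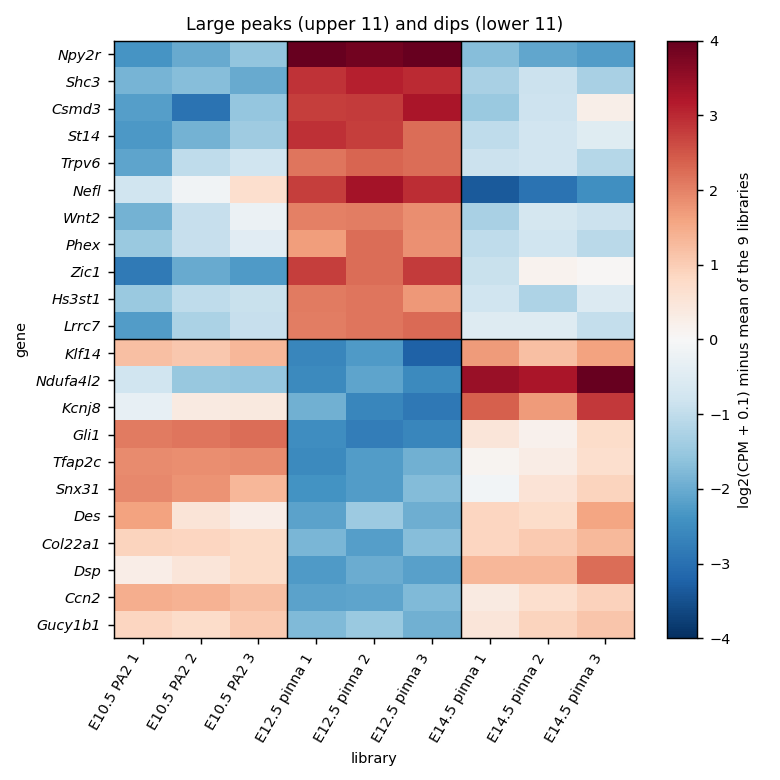
Rows are 11 peaks and 11 dips from the 12 of each kind with the largest distance from the nearer stage, columns are the 9 libraries, and colour is log2(CPM + 0.1) minus the mean of the row, clipped at 4 in size. E12.5 columns are uniformly the highest in the upper block and the lowest in the lower block, while E10.5 and E14.5 differ from each other for genes such as Nefl and Ndufa4l2.

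Transcription factors of the arch and pinna followed guidance genes in their share of peaks, with the cell type marker lists left aside. Of 92 genes listed, 82 were tested, of which 18 were peaks (22%, against 5.87% of all genes) and 9 were dips (11%, against 4.96%). The same 2 shares over all genes are the background for each list below. The 6 neural crest mesenchyme markers that were peaks are among these 18. The median E12.5 contrast of the list was 0.54, against 0.00634 over all genes. Pax1, a paired-box factor of sclerotome and pharyngeal pouches, was at or near 0 before and after. The libraries gave 0, 0.0343 and 0 CPM for Pax1 at E10.5, then 1.45, 1.11 and 1.77 CPM at E12.5 and 0, 0.147 and 0.109 CPM at E14.5. From 1 count over the E10.5 group, the ratio of E12.5 to E10.5 was 129, with a 95% counting interval of 22.7 to 5130. Zic1, a zinc-finger factor of neural crest and dorsal mesoderm, rose from almost nothing and fell back only part of the way. The libraries gave 0.0335, 0.137 and 0.09804 CPM for Zic1 at E10.5, then 6.39, 4.41 and 6.46 CPM at E12.5 and 0.419, 0.946 and 0.876 CPM at E14.5. Meox2, a homeobox factor of somite and limb muscle precursors, was lowest at E14.5, with 2.73 against E10.5 (SE 0.24) and 4.41 against E14.5 (SE 0.27).

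Other factors of the same list peaked by smaller steps. Osr1, a zinc-finger factor of connective tissue precursors (chr12:9570116-9581500), had nearly equal levels in its E12.5 libraries. Osr1 measured 17.9, 27.7 and 38.3 CPM at E10.5, 119, 115 and 115 CPM at E12.5 and 19.3, 18.7 and 22.5 CPM at E14.5. Its E12.5 level was far above both other stages, with a log2 fold change of 2.06 against E10.5 (SE 0.20, edgeR, adjusted p = 4.07e-06) and a log2 fold change of 2.53 against E14.5 (SE 0.20, edgeR, adjusted p = 1.12e-06). Pou3f3, a POU factor needed for arch skeletal patterning (chr1:42695768-42703176), had overlapping levels at E10.5 and E14.5. Levels of Pou3f3 were 505, 516 and 492 CPM at E12.5, against 215, 209 and 189 CPM at E10.5 and 184, 189.7 and 199 CPM at E14.5. The SD of each group was small beside the step, and the differences were a log2 fold change of 1.30 against E10.5 (SE 0.06, edgeR, adjusted p = 2.04e-08) and a log2 fold change of 1.40 against E14.5 (SE 0.06, edgeR, adjusted p = 1.42e-08). Tbx22 (distance 1.44), Dlx6 (0.99), Irx1 (0.92), Msx1 (0.78) and Prrx1 (0.47) were peaks with more uneven sides. Irx1 rose 4.57 on the log2 scale from E10.5 and then fell by 0.92.

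The dips of this list included factors that were almost lost at E12.5. Tfap2c, which encodes AP-2 gamma, an early neural crest and epithelial factor, was one of them (chr2:172549593-172558622). The libraries gave 6.09, 6.005 and 6.14 CPM for Tfap2c at E10.5, then 0.186, 0.261 and 0.3399 CPM at E12.5 and 1.72, 1.98 and 2.58 CPM at E14.5. It was called lower against both stages, by log2 fold changes of -4.51 against E10.5 (SE 0.27) and -2.97 against E14.5 (SE 0.27). Alx1, an aristaless-like homeobox factor of facial mesenchyme, was highest at E10.5 and had a distance of -2.64. Pax9, a paired-box factor of pharyngeal and skeletal tissue, had -1.95, Meox1 -1.73, Tfap2a -1.29 and Snai1 -0.99. Hand2, the factor of the ventral arch, fell by 6.37 on the log2 scale from E10.5, and E12.5 was below E14.5 by the smaller distance of -0.78. Lhx6 had -0.65, a call lost without E10.5 replicate 1, 2 or 3 (-0.67, -0.59 and -0.69), without E12.5 replicate 1 or 3 (-0.47 and -0.44), and with total counts only (-0.59).

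Hoxa2, the factor that gives the second arch its identity, was itself a small peak (chr6:52162417-52164831). Hoxa2 measured 122, 126 and 128 CPM at E10.5, 202, 222 and 212 CPM at E12.5 and 164, 155 and 147 CPM at E14.5. The 3 groups did not overlap, with a log2 fold change of 0.76 against E10.5 (SE 0.06, edgeR, adjusted p = 8.53e-07) and a log2 fold change of 0.45 against E14.5 (SE 0.06, edgeR, adjusted p = 5.88e-05), and its level at E14.5 stayed above that at E10.5 in all libraries. Its exons share 267 bases with the predicted gene Gm28308 on the same strand. It was the only peak of 13 Hox and TALE genes tested (7.69%, against 5.87% of all genes), with 0 dips (against 4.96%). A count of 1 in 13 is close to the share over all genes, so nothing is read from it. Under total counts only, 4 of the 13 were peaks. The median contrast of this list was 0.29.

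**Figure D3:**
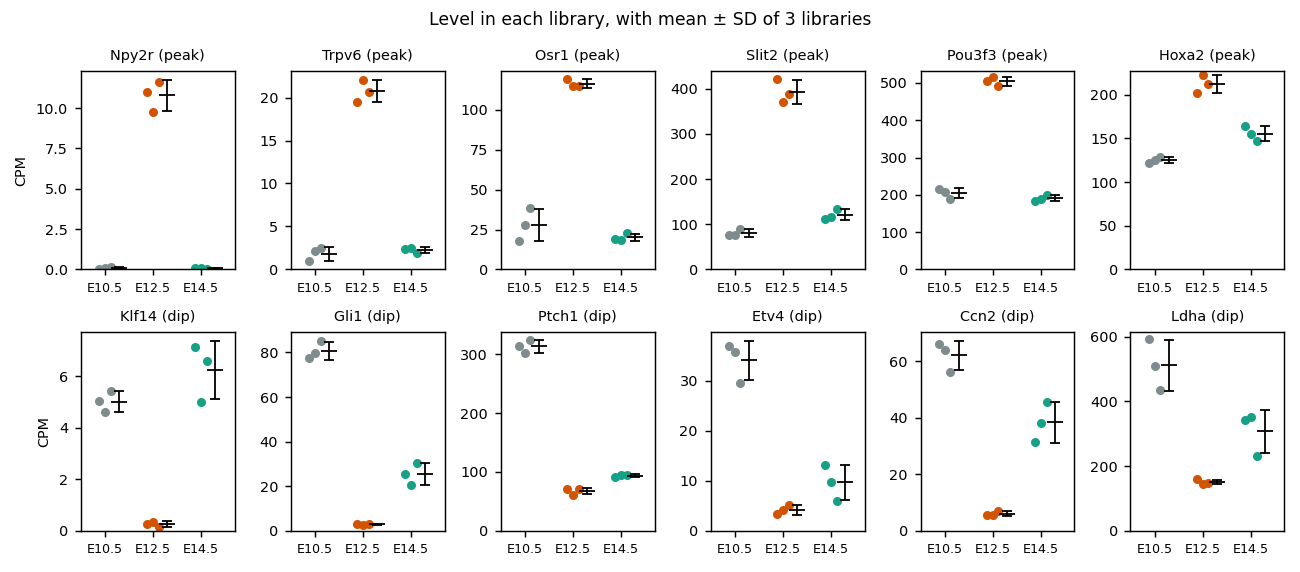
Points are CPM in each library for 6 peaks (upper row) and 6 dips (lower row), with the mean ± SD of 3 libraries beside them, on linear axes from 0. Npy2r is near 0 at E10.5 and E14.5 and Slit2 lies well above both, while Gli1 and Klf14 are close to 0 at E12.5 only.

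Guidance molecules, which steer growing axons and migrating cells, held the largest share of peaks outside the cell type marker lists. Of 71 genes tested, 17 were peaks (23.9%) and 6 were dips (8.45%), with a median contrast of 0.36. Slit2, a secreted repellent ligand of Robo receptors (chr5:47983138-48307733), led the list. Slit2 measured 76.1, 76.5 and 90.2 CPM at E10.5, 422, 370.4 and 387 CPM at E12.5 and 112, 116 and 135 CPM at E14.5. The groups did not overlap, with a log2 fold change of 2.28 against E10.5 (SE 0.09, edgeR, adjusted p = 6.57e-09) and a log2 fold change of 1.70 against E14.5 (SE 0.09, edgeR, adjusted p = 5.50e-08). Sema5b, a transmembrane semaphorin, had a distance of 1.58, Ntng2, a membrane-anchored netrin, 1.26, and Epha6, an ephrin receptor, 1.13. Nrp2, a receptor for class 3 semaphorins, was alike at E10.5 and E14.5. Nrp2 measured 121, 139 and 141 CPM at E10.5, 288, 299.7 and 272 CPM at E12.5 and 116, 129.6 and 119.6 CPM at E14.5. Sema3a, a ligand of the neuropilin family, peaked by 0.48, and the ephrins Efnb1, Efnb2 and Efna5 by 0.28, 0.63 and 0.41. The dips were Sema7a (-1.51), Sema3c (-1.43), the chemokine receptor Cxcr4 (-1.0), the netrin receptors Unc5a (-0.96) and Unc5b (-0.83), and Sema4c (-0.17). Sema4c kept its call in 11 of 17 alternatives (-0.20 to -0.12). The netrin-family receptor Unc5d was a peak of 1.03, opposite to Unc5a and Unc5b. Over the wider adhesion list, 6 of 56 were peaks (10.7%) and 4 were dips (7.14%). Leaving out 1 library gave 4 to 6 peaks and 2 to 4 dips (6 and 2 without E10.5 replicate 3). The peaks Cdh20 and Cdh11 kept their calls in 7 and 11 of 17 alternatives, and the dips Cdh3 and Itga1 in 10 and 11. Among the adhesion peaks Nrcam had the distance 0.98, Cntn2 0.85 and Itgb8 0.76, while Cntn1 and Pcdh1 dipped, each by -1.10.

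Wnt pathway genes were peaks in 10 of 53 tested (18.9%) and dips in 1 (1.89%). Of the ligands Wnt2 led, and Wnt16 followed with a distance of 1.09. Among secreted inhibitors Sfrp2 had 1.30, Dkk2 0.72 and Sostdc1 0.50, and among nuclear effectors Tcf7l2 had 0.77 and Lef1 0.63. Axin2, a negative feedback target, was higher than at E14.5 by only 0.24 (edgeR, adjusted p = 0.0168), a call lost without E12.5 replicate 1 (0.22) or E14.5 replicate 2 (0.18), and Sostdc1 lost its call without E12.5 replicate 2 or 3 or E14.5 replicate 3 (0.41, 0.50 and 0.36). Sfrp2 was at similar levels on both sides. Levels of Sfrp2 were 308, 252 and 295 CPM at E12.5, against 89.3, 119.9 and 138 CPM at E10.5 and 103, 111 and 132 CPM at E14.5. The exception was Notum, an enzyme that inactivates Wnt ligands, at -0.49. Of BMP and TGF-beta genes, 7 of 56 were peaks and 0 were dips. They included the ligand Gdf7 (1.54), the extracellular regulator Bmper (1.52), the ligands Tgfb2 (1.21), Bmp6 (0.90) and Gdf5 (0.77), the co-receptor Rgmb (0.51) and the BMP antagonist Grem1 (0.50). Bmper was lowest at E14.5. The libraries gave 43.8, 56.8 and 61.6 CPM for Bmper at E10.5, then 142, 162 and 159.8 CPM at E12.5 and 22.97, 25.4 and 25.7 CPM at E14.5. Of the retinoic acid and IGF list, 3 of 29 were peaks (10.3%) and 0 were dips: Aldh1a2, which makes retinoic acid, at 1.30, Igf1 at 0.84 and Crabp1, a retinoid-binding protein, at 0.49. Of 37 tendon and connective tissue genes, 5 were peaks (13.5%) and 0 were dips, led by the matrix protein Efemp1 (1.75), by Vcan (1.25), a proteoglycan, by Thbs4 (1.13) and by the tendon factor Mkx (1.0). Vcan was lowest at E14.5. Levels of Vcan were 2822, 2849 and 3005 CPM at E12.5, against 1167, 1187 and 1284 CPM at E10.5 and 671, 987 and 686 CPM at E14.5.

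The Hedgehog targets Gli1 and Ptch1 fell, and a further target, Hhip, did not pass the test. Gli1, a transcription factor induced by Hedgehog (chr10:127329882-127341974), dropped to a few CPM at E12.5 and then came back in part. Gli1 measured 77.3, 79.6 and 85.1 CPM at E10.5, 3.16, 2.61 and 2.92 CPM at E12.5 and 25.6, 20.4 and 30.5 CPM at E14.5. The E12.5 libraries lay far below all others, with a log2 fold change of -4.80 against E10.5 (SE 0.15, edgeR, adjusted p = 1.35e-09) and a log2 fold change of -3.14 against E14.5 (SE 0.15, edgeR, adjusted p = 2.51e-08). Ptch1, the Hedgehog receptor and a target too (chr13:63508328-63573598), fell as well, but its return was small. The libraries gave 314, 302 and 324 CPM for Ptch1 at E10.5, then 70.4, 60.8 and 70.8 CPM at E12.5 and 90.6, 94.6 and 95.2 CPM at E14.5. The differences were a log2 fold change of -2.22 against E10.5 (SE 0.07, edgeR, adjusted p = 1.17e-09) and a log2 fold change of -0.47 against E14.5 (SE 0.07, edgeR, adjusted p = 9.12e-05). Of 14 Hedgehog genes tested these were the 2 dips (14.3%), against 1 peak (7.14%), Gli2, a transcription factor of the pathway, at 0.27, which kept its call in 13 of 17 alternatives and lost it without E10.5 replicate 1 or 2 or E12.5 replicate 1 or 3 (distance 0.17 to 0.37 over the alternatives). Hhip, a Hedgehog-binding inhibitor and target, chosen after its values were seen, was 15.8 ± 1.76 CPM at E10.5, 17.1 ± 3.47 CPM at E12.5 and 14.55 ± 4.404 CPM at E14.5 (SD, n = 3), with an E12.5 contrast of 0.18 (SE 0.18, edgeR, adjusted p = 0.458). The median contrast of the list was 0.16.

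FGF targets were divided between dips and genes that were not dips. Of 30 FGF genes tested, 6 were dips (20.0%) and 2 were peaks (6.67%), and the median contrast was -0.16. Etv4, an ETS factor downstream of FGF receptors, had the largest distance among the ETS factors (chr11:101769742-101785371). The libraries gave 36.9, 35.7 and 29.5 CPM for Etv4 at E10.5, then 3.27, 4.08 and 5.17 CPM at E12.5 and 13.1, 9.82 and 6.04 CPM at E14.5. All E12.5 libraries were below the E10.5 libraries by far and below E14.5 by less, with a log2 fold change of -3.02 against E10.5 (SE 0.26, edgeR, adjusted p = 1.37e-06) and a log2 fold change of -1.21 against E14.5 (SE 0.26, edgeR, adjusted p = 0.00164). Etv5, its relative, was highest at E14.5. Levels of Etv5 were 17.05, 18.1 and 20.1 CPM at E12.5, against 42.6, 39.01 and 37.8 CPM at E10.5 and 65.7, 55.5 and 58.4 CPM at E14.5. Its test gave a log2 fold change of -1.11 against E10.5 (SE 0.09, edgeR, adjusted p = 8.92e-07) and a log2 fold change of -1.70 against E14.5 (SE 0.09, edgeR, adjusted p = 4.26e-08). The feedback inhibitors Spry1 and Dusp6 had distances of -0.97 and -0.50, and the receptor Fgfr2 -0.26. Other feedback targets, chosen after their values were seen, went a different way from E10.5 to E12.5: Spry2 rose by 0.90 (SE 0.09) and Spry4 by 1.08 (SE 0.09) and both were higher still at E14.5, while the ETS factor Etv1 was at 0.18 (SE 0.16, edgeR, adjusted p = 0.341) against E10.5 and lower than at E14.5 (-1.63, SE 0.15). Fgf3, a ligand, was at -1.64 on a level of 7 counts over the 3 E12.5 libraries, a call lost without E12.5 replicate 2 or 3 or E14.5 replicate 1 (-1.26, -1.53 and -1.30). The 2 peaks were Flrt2 and Flrt3, membrane partners of FGF receptors, at 0.32 and 0.40, the latter called in 13 of 17 alternatives (0.24 to 0.55) and lost without E12.5 replicate 2 or 3 or E14.5 replicate 1 or 3. For Notch, 4 of 20 were dips (20.0%) and 3 peaks (15.0%): the effector Heyl at -1.37, the feedback inhibitor Nrarp at -1.25, the ligand Jag1 at -0.38 and the receptor Notch1 at -0.34 fell, while the effector Hes1 (1.07), the ligand Jag2 (0.96) and the receptor Notch2 (0.36) rose. Jag1 was no longer called with total counts only (-0.26), and Nrarp kept its call in 8 of 16 alternatives (distance -1.54 to -1.06).

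Genes of glycolysis and the response to low oxygen formed the list with the highest share of dips. Of 35 tested, 10 were dips (28.6%, against 4.96%) and 0 were peaks, and by the contrast alone 21 were lower and 2 higher, with a median of -0.66. Leaving out 1 library gave 9 to 14 dips. Ldha, lactate dehydrogenase A, had the largest distance among the glycolytic enzymes (chr7:46841475-46855627). Levels of Ldha were 159, 146 and 149 CPM at E12.5, against 592, 509 and 434 CPM at E10.5 and 342, 351 and 232 CPM at E14.5. E12.5 was below every other library, and both other stages spread widely (512 ± 79.3 CPM at E10.5 and 308 ± 66.4 CPM at E14.5, SD, n = 3). Ldha had a log2 fold change of -1.76 against E10.5 (SE 0.15, edgeR, adjusted p = 1.55e-06) and a log2 fold change of -1.03 against E14.5 (SE 0.15, edgeR, adjusted p = 0.000109). Aldoa, the aldolase, went the same way. The libraries gave 546, 526 and 452 CPM for Aldoa at E10.5, then 229.7, 204 and 209 CPM at E12.5 and 378, 349.8 and 263 CPM at E14.5. Its test gave a log2 fold change of -1.25 against E10.5 (SE 0.12, edgeR, adjusted p = 4.26e-06) and a log2 fold change of -0.62 against E14.5 (SE 0.12, edgeR, adjusted p = 0.000882). Epas1, a transcription factor of the oxygen response, had -1.81, Egln3, a proline hydroxylase that marks such factors for removal, -1.41, the lactate exporter Slc16a3 -1.43, the glucose transporter Slc2a1 -0.64, Pfkp -0.68, Car12 -0.64 (a call lost without E12.5 replicate 3, at -0.53) and Tpi1 -0.57. Gapdh, at -0.48, had only 11.3 ± 1.44 CPM (SD, n = 3) at E12.5. Glycolytic enzymes have many near-identical processed copies in the genome, so the counting may have split or dropped reads of Gapdh, Ldha, Aldoa and Tpi1. Pgk1, Pkm, Vegfa and Pdk1, members of the list chosen after their values were seen, were not dips. Pgk1 was lower than at E10.5 (-1.32, SE 0.15), with -0.14 (SE 0.15, edgeR, adjusted p = 0.427) against E14.5. Pkm was lower than at E10.5 (-0.93, SE 0.10) and higher than at E14.5 (0.56, SE 0.10). Vegfa and Pdk1 rose from E10.5 to E12.5 by 0.95 (SE 0.07) and 0.36 (SE 0.12). Both were lower at E12.5 than at E14.5 (-0.99, SE 0.07, and -0.96, SE 0.12). The E14.5 cells were dissociated with papain and the others with trypsin, and E10.5 and E12.5 differ in tissue, so neither can be told apart from the stage here.

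**Figure D4:**
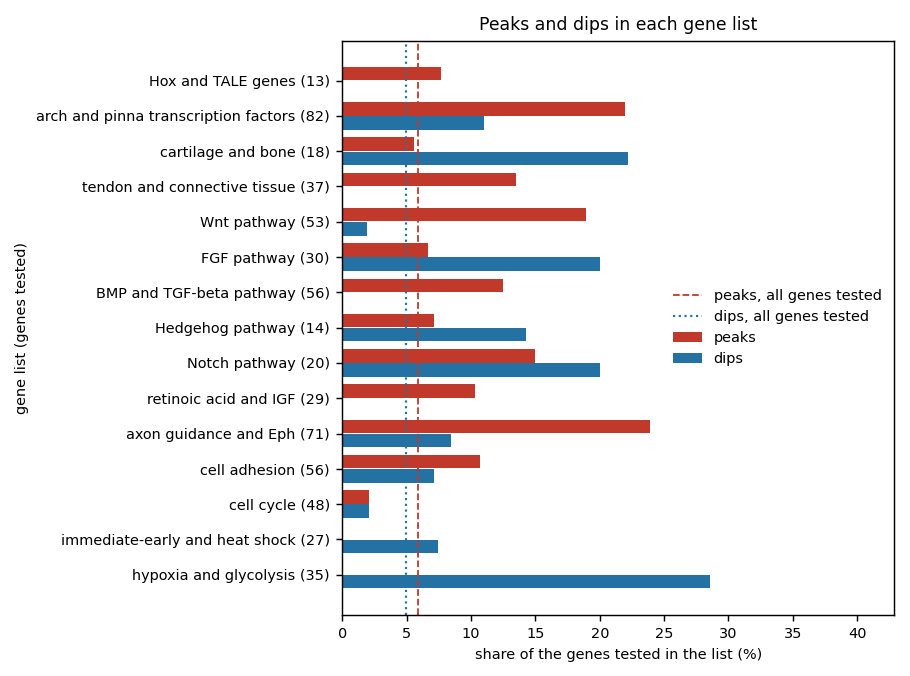
Bars give the share of the genes tested in each list, cell type markers left aside, that were peaks (red) or dips (blue), and the lines give the shares over all genes tested, 5.87% and 4.96%. Guidance genes and arch transcription factors hold the longest red bars and hypoxia and glycolysis the longest blue bar.

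The largest dips of all were a mixed set. Klf14, a Krüppel-like zinc-finger factor (chr6:30956023-30959078), had the greatest distance of the genes named by the rule. Levels of Klf14 were 0.2599, 0.359 and 0.136 CPM at E12.5, against 5.02, 4.598 and 5.42 CPM at E10.5 and 7.14, 4.98 and 6.59 CPM at E14.5. It was present at like levels at E10.5 and E14.5 and near 0 at E12.5, with a log2 fold change of -4.29 against E10.5 (SE 0.29, edgeR, adjusted p = 2.13e-07) and a log2 fold change of -4.61 against E14.5 (SE 0.28, edgeR, adjusted p = 1.40e-07). Ccn2, the matricellular protein also called connective tissue growth factor (chr10:24595442-24598683), fell in the same way. Levels of Ccn2 were 5.46, 5.52 and 7.104 CPM at E12.5, against 66.03, 63.9 and 56.3 CPM at E10.5 and 31.3, 38.2 and 45.7 CPM at E14.5. Its fold changes were -3.36 against E10.5 (SE 0.15) and -2.67 against E14.5 (SE 0.15). Col22a1, a collagen of tissue junctions, had -2.79, Gucy1b1, a subunit of guanylate cyclase, -2.65, Snx31, a sorting nexin, -2.92, and Dsp, the desmosome protein desmoplakin, -2.71. Exons of Ccn2 share 665 bases with the predicted gene Gm15270 on the opposite strand, and those of Dsp 499 with Gm10129. Larger overlaps on the opposite strand were found for other named genes. Among them were Nrarp (2051 bases), Twist2 (1477), Tagln (1241), Lef1 (1208), Ccnd1 (1100) and Notch1 (1068). Further named genes, Gli1 (265) among them, had smaller ones.

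Among the dips Kcnj8, Des and Ndufa4l2 were low or absent at E12.5 and highest, or near so, at E14.5. Kcnj8 encodes a potassium channel subunit of pericytes and Des the muscle filament protein desmin. Levels of Kcnj8 were 0.223, 0.09795 and 0.06798 CPM at E12.5, against 0.8697, 1.44 and 1.503 CPM at E10.5 and 6.32, 3.89 and 8.52 CPM at E14.5. Levels of Des were 0.668, 1.14 and 0.782 CPM at E12.5, against 10.2, 4.77 and 3.95 CPM at E10.5 and 6.08, 5.61 and 10.01 CPM at E14.5. Markers of other cells moved over the same stages. The summed level of 7 pericyte and smooth muscle markers (Kcnj8 among them) was 36.6 to 53.1 CPM at E10.5, 69.9 to 82.2 CPM at E12.5 and 378 to 457 CPM at E14.5, and that of 10 muscle markers (Des among them) was 8.20 to 12.7, 13.4 to 21.6 and 13.4 to 17.7 CPM. At E10.5, 0 of the 7 and 2 of the 10 markers were at 0 in all 3 libraries, and at E12.5 none was. The sum of the 7 hides different directions: by the E12.5 contrast 5 were lower and 1 higher, with a median of -1.15. Rgs5 and Acta2 of these 7 were chosen after their values were seen. From E10.5 to E12.5 Rgs5 fell by -3.88 (SE 0.63) and Acta2 rose by 2.49 (SE 0.40). Of the 4 muscle markers tested, Actc1 and Tnnt1, a cardiac actin and a slow troponin, were peaks (distances of 1.81 and 1.46, called in 17 of 17 alternatives) and Des was the dip, and of the 7 pericyte and smooth muscle markers Tagln was a peak (called in 8 of 17 alternatives, 0.43 to 0.68, and lost with the replicate block and without any single library other than E10.5 replicate 2) and Kcnj8 a dip. Their part in the dips of Kcnj8 and Des was not tested. Ndufa4l2, a mitochondrial protein induced by low oxygen, had 1 count over the 3 E12.5 libraries, against 13 at E10.5 and 1065 at E14.5. The E10.5 to E12.5 ratio was 12.6, with a counting interval of 1.89 to 536, and the E14.5 to E12.5 ratio 668, with an interval of 120 to 26400. Against E10.5 the dip was therefore close to the floor, and it was lost under the limma-voom test (log2 distance -2.60) and without E10.5 replicate 1 or E12.5 replicate 1 or 3 (-2.80, -2.88 and -2.82).

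Of the other marker lists, the sums of glia (31.7 to 37.1 CPM at E12.5, 106 to 121 CPM at E14.5) and melanocytes (51.8 to 72.1 and 384 to 439 CPM) were highest at E14.5. So were those of endothelium (19.3 to 27.9 and 110 to 173 CPM), epithelium (8.54 to 10.1 and 31.8 to 59.7 CPM) and macrophages (3.72 to 4.55 and 7.11 to 12.47 CPM). Red blood cell markers ranged from 1.84 to 14.6 CPM over all libraries. Kdr and Pecam1, both endothelial genes, were chosen after their values were seen. Kdr made up most of the endothelium sum at E14.5 (means of 140.87 of 148 CPM) and at E12.5 (17.97 of 23.1 CPM). The rise of that sum therefore rests largely on this gene. Pecam1 did not share it, with a mean of 2.434 CPM at E14.5, against 1.701 CPM at E12.5 and 2.889 CPM at E10.5. The melanocyte gene Kit was a dip at -0.73. Kit made up most of the melanocyte sum at E10.5 (means of 65.3 of 72.0 CPM). Mitf and Dct, also melanocyte genes, were chosen after their values were seen. From E10.5 to E12.5 Kit fell by -1.43 (SE 0.141), while Mitf rose by 1.496 (SE 0.104) and Dct by 3.21 (SE 0.248). By the E12.5 contrast 1 of the 7 melanocyte markers was higher and 2 were lower, with a median of -0.227. The dip is therefore read for Kit alone and not for melanocyte genes as a set. Cell cycle genes held 1 peak (Ccnd1, 0.59) and 1 dip (E2f1, -0.51) of 48 tested, each 2.08%. Immediate-early and heat shock genes held 0 peaks and 2 dips (Myc at -0.97 and Dnajb1 at -0.32) of 27 (7.41%). Over all genes the shares were 5.87% for peaks and 4.96% for dips. Of 18 cartilage and bone genes, 4 were dips (22.2%) and 1 was a peak (5.56%): Acan, Sp7, Spp1 and Col9a1 were at -2.02, -1.74, -1.33 and -0.37, and Phex was the peak. Col9a1 kept its call in 7 of 17 alternatives (-0.54 to -0.17).

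**Figure D5:**
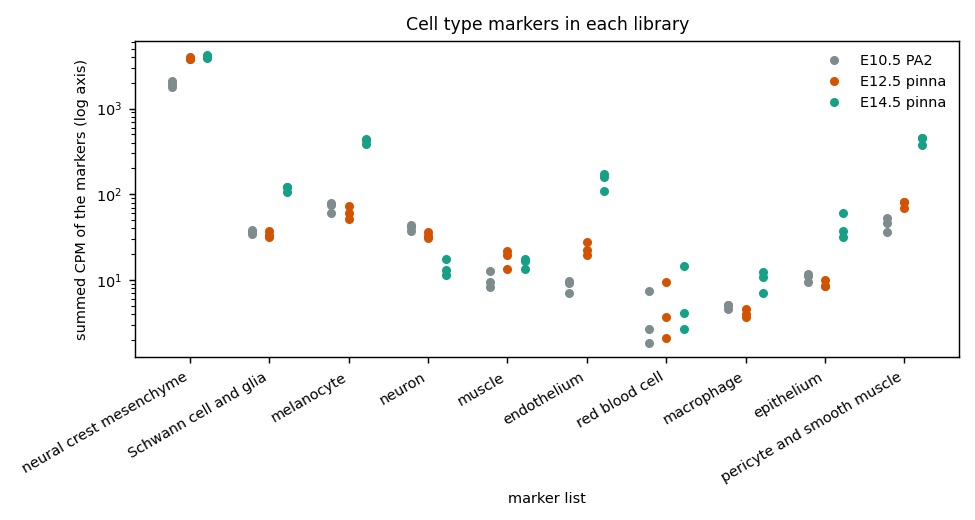
Points are the summed CPM of each marker list in each library, on a log axis, coloured by stage. The neural crest mesenchyme sum is lowest at E10.5, and those of glia, melanocytes, endothelium, epithelium and pericytes are highest in the E14.5 libraries. Most of the endothelium sum at E14.5 is Kdr.

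The span of the genes was described without a test. The median span in the annotation, introns included, was 43.8 kb for the 772 peaks with a position, 30.6 kb for 663 dips and 25.4 kb for all genes tested, and 33.0%, 17.5% and 15.8% spanned more than 100 kb. Among peaks with a distance of at least 1 the share was 41.3%. Median exonic length was 5349 bases for peaks, 4348 for dips and 4382 over all genes. Their median level was also lower, at an average log2 CPM of 4.34 for peaks and 4.89 for dips, against 5.02 over all genes.

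Promoter sequences (250 bases before to 50 after the start, from RefSeq, GRCm38.p6) were matched to 610 peaks and 520 dips, and searched on both strands for TGACAG (the Meis motif), TGATNNAT (Pbx-Hox), CTTTGA (Tcf/Lef), TGANTCA (AP-1) and TTTCCCGC (E2F). The motifs can overlap each other. TGACAG was in 17.1% of 819 peak promoters and 14.8% of 697 dip promoters, against 16.4% of those of all genes tested and 19.2% of all 32851 promoters. TGATNNAT was in 4.52% and 4.16% (4.06% and 8.85%), CTTTGA in 12.8% and 10.6% (11.7% and 16%), TGANTCA in 5.49% and 5.31% (4.58% and 7.81%) and TTTCCCGC in 0.977% and 0.574% (1.93% and 1.07%). The promoters of 3 peaks are shown for comparison, with any of the motifs in capitals: Npy2r, the largest peak named, holds none of them, Zic1 holds a Pbx-Hox match and Hoxa2 holds a Pbx-Hox and a Meis match. They lie at chr3:82548036-82548335, chr9:91365719-91366018 and chr6:52164782-52165081, all on the minus strand.
Npy2r: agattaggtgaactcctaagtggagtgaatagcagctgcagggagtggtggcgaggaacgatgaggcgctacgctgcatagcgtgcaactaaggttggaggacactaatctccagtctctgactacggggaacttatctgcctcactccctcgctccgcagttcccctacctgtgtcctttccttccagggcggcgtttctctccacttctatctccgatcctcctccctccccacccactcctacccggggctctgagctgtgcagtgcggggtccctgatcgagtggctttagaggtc
Zic1: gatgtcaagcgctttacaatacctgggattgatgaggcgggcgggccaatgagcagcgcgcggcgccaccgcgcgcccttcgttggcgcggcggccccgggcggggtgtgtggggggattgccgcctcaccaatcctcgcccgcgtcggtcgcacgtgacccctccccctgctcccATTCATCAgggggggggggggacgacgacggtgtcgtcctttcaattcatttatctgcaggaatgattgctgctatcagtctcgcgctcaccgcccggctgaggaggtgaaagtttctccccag
Hoxa2: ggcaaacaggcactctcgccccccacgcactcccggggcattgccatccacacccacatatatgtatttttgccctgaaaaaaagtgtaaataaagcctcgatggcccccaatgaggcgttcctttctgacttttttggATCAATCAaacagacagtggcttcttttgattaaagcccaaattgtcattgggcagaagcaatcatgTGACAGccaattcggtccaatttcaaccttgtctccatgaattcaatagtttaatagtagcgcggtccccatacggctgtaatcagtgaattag
A match is a description of letters and not of binding.

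An independent readout was the genotype series, in which PA2 at E10.5 from embryos lacking HIRE1, a distal regulatory region of Hoxa2 (HIRE1del), was compared with PA2 of WT embryos, 3 libraries each. These libraries took no part in choosing the peaks and dips. No sorting of neural crest cells is described for them, so unlike the stage libraries they may hold other cells of the arch. Hoxa2, whose loss checks the labels, fell from 78.3 ± 5.49 CPM to 5.87 ± 1.18 CPM (SD, n = 3), a log2 fold change of -3.74 (SE 0.12, edgeR, adjusted p = 1.56e-09). Over all 14383 genes tested, 17 were higher (0.118%) and 46 lower (0.320%). Of 727 peaks tested there, 3 were higher (0.413%) and 9 lower (1.24%), and of 663 dips, 3 were higher (0.452%) and 5 lower (0.754%), all of them small numbers. The median log2 fold change was -0.0244 for peaks, -0.00517 for dips and -0.00829 over all genes.

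The lower peaks included Hoxa2 itself and its neighbours Hoxaas2 and Hotairm1, antisense or non-coding transcripts of the Hoxa cluster, whose reads an unstranded kit cannot separate from overlapping genes, and these 2 were chosen after their values were seen. Besides these, Zfp503, a zinc-finger repressor, was 77.9, 89.6 and 89.4 CPM in WT and 45.4, 44.6 and 52.0 CPM in HIRE1del, without overlap in that series (log2 fold change -0.86, SE 0.09, edgeR, adjusted p = 0.000482). Its call as a peak held in 11 of 17 alternatives (distance 0.33 to 0.58). Higher peaks were Tbx22 (2.48, SE 0.40), Rspo2, a Wnt agonist (0.95, SE 0.09) and Flrt2 (0.63, SE 0.12). Rspo2 lost its call as a peak without E12.5 replicate 2 (distance 0.31), and it was 15.2, 15.6 and 15.2 CPM in WT and 27.9, 31.3 and 29.6 CPM in HIRE1del. Among dips, Pax9 (-1.28, SE 0.16) and Meox1 (-1.47, SE 0.16) were lower and Lhx6 (1.52, SE 0.29) was higher. Pax9 was 21.3, 18.7 and 17.6 CPM in WT and 8.49, 5.69 and 9.53 CPM in HIRE1del, again without overlap. With all libraries 12 peaks and 8 dips were called. Without WT replicate 2 or 3 the numbers were 7 and 4, and without HIRE1del replicate 1, 2 or 3 the dips called numbered 3, 3 and 5.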

How the data were processed

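Reads of the stage series (50 bases, single-end, TruSeq RNA v2, labelled as unstranded) were aligned by the authors to GRCm38/mm10 with QuasR and counted over UCSC known genes in the opposite orientation, and the deposited values are raw counts per gene of 24594 genes. Values of overlapping or antisense genes are uncertain. All columns of values were used (0 left out).

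The filter on low genes asked for 1 CPM or more in 2 or more libraries, TMM factors were applied, and 1 model with a mean per stage was fitted with the edgeR quasi-likelihood test (two-sided, edgeR 4.0.16, R 4.3.3), with Benjamini-Hochberg adjustment. The SE is the log2 fold change divided by the square root of F. Alternatives used limma 3.58.1 and DESeq2 1.42.0. The genotype series was fitted apart, on 12 libraries. The model was tested on simulated counts with a single size of change and a single spread, and with changes placed only in genes at higher levels. How it treats smaller changes or changes in genes at low levels was not examined. Positions came from GENCODE M21. Replicates are separate biological samples per the labels, and chi-square per degree of freedom between them was 8.83 to 44.2, so none was a copy.

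Named genes are the 12 largest peaks and dips whose average log2 CPM was 1 or more with E12.5 libraries apart from the rest, genes of the lists, and Hoxa2. A few of them are left unreported. The members and lists were chosen with earlier results of these data known.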

Additional observations from a re-analysis of the deposited data

How the results depend on the processing

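Peaks and dips were counted under 23 alternatives and the contrast under 20, and no gene turned from peak to dip in the scalings, filters, tests, block, pairwise fits or fits without a library. DESeq2 size factors, the low-count filters, the DESeq2 and limma-voom tests and the pairwise fits gave counts of the stage comparison within 1.5 times of those reported. With total counts only, dips numbered 440, and the contrast split into 4314 higher and 1849 lower. At an adjusted p under 0.01 there were 520 peaks, 424 dips and 1809 genes lower in the contrast. With a log2 fold change of at least 1, the contrast gave 740 higher and 471 lower, and the distance from the nearer stage gave 192 peaks and 134 dips. Taking the means alone with the contrast gave 1580 peaks and 1435 dips.

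Leaving out 1 library gave 658 to 781 peaks, 509 to 659 dips, 2529 to 3133 genes higher and 1939 to 2817 lower. Replicate numbers did not pair the libraries (correlations of deviations between same-numbered libraries -0.298 to 0.166). The replicate block gave 770 peaks, 746 of them shared, and 656 dips, 634 of them shared. In HIRE1del, the DESeq2 test called 26 peaks and 15 dips, and leaving out 1 library gave 7 to 11 peaks and 3 to 6 dips. Of 145 genes followed, 120 were called under all alternatives in which they were tested, and 25 lost the call in at least 1.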
